A study of Mus musculus with 8 samples.

Results

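The genes described here are 31 p53 response genes: Trp53 itself and 30 genes known as its targets or feedback partners. They were taken from general knowledge of the pathway, with earlier results of these data known, so counts over them are descriptions. They were sorted by role into p53 and feedback (4 genes), arrest and growth control (8), death (10), repair (5), and metabolism and other (4). All 31 were found among the 50600 gene rows of the table. Of these, 28 reached a mean of 5 across libraries and were tested together with all 10222 genes that passed that filter. Fas, Gdf15 and Rrm2b did not pass and are given by their values only.

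The RNA-seq libraries came from JUN-TetON ESCs, which are OG2 mouse embryonic stem cells (genotype c-Jun_TetOn_mESC, passage P12, of mixed 129SVJ, C57B6 and CBA strain) in which doxycycline switches on a JUN transgene. The 4 treatments had 2 libraries each, 8 in all: DMSO, PFI-3, BI-9564, and both compounds together (P+B). PFI-3 binds the bromodomains of the BAF ATPases BRG1 and BRM and of polybromo-1, and BI-9564 binds those of BRD9 and BRD7, so the comparison of the compounds sets one class of BAF reader against another. Every group, DMSO included, was kept feeder-free in 2i/LIF medium and received 2 µg/ml doxycycline, with a labelled time of 6 h, so each difference below is between JUN-induced cells. The legend of the study gives a longer time than the labels for JUN induction, and 6 h for the compounds. Compound doses are not given in the labels, and cells without JUN induction were not analysed here. The labels do not say whether the 2 libraries of a group came from separate cultures, so the p-values measure the spread between these libraries, which may be technical.

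The protein p53 is a transcription factor that is held low by MDM2, which marks it for degradation, and its abundance in stressed cells is set mostly at the protein level rather than by its mRNA. Stabilised p53 binds its response elements and raises genes that stop the cell cycle, start apoptosis, repair DNA and, through Mdm2 and others, restrain p53 itself. In mouse ESCs the Trp53 mRNA is abundant, and p53 is known to oppose pluripotency genes as well as to raise the usual targets.

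All values are TPM (a level scaled for transcript length and to a common library total) that the authors deposited as whole numbers, and log2 differences are on the log2(TPM + 1) scale, which understates the change of low genes. A gene was called when its adjusted p in limma was under 0.05 and its fold change at least 1.5. Because replicate 1 minus replicate 2 was weakly correlated between groups (Pearson's r 0.143 to 0.236), each comparison is also given with a replicate block in the model. The labels do not say what same-numbered libraries share. TPM keeps no sequencing depth, which is therefore unknown. The libraries summed to between 991574 and 991897, and 10285 to 10451 genes reached a value of 5. The 10 embryonic stem cell markers were detected in every library and summed to 2199 to 2392 TPM under DMSO, 2423 to 2654 under PFI-3, 1827 to 2084 under BI-9564 and 1958 to 2209 under P+B, while 10 fibroblast markers summed to at most 5 (Col1a2, Pdgfra, Dcn, Lum, Postn and Fap at 0 throughout) and 8 primitive endoderm markers to at most 16 (Foxa2, Pdgfra and Sox7 at 0).

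Some of the p53 targets carry the binding element next to an annotated start. RefSeq promoters (GRCm38.p6, 250 bases before to 50 bases after a start) were found for 23 of the 31 genes. Ddb2, Perp, Pmaip1, Rrm2b, Tnfrsf10b, Trp53inp1, Xpc and Zmat3 were not in the table. Each promoter found was searched for a p53 response element of 20 bases: 2 units of 10 bases end to end, each with C at the fourth and G at the seventh base, purines in the first 3, A or T between C and G, and pyrimidines in the last 3, with at most 1 departure outside the C and G. The element reads alike on both strands. It was found in Cdkn1a, Ccng1 and Rps27l, and in 22 of 27025 genes of the table (0.0814%). A match describes the letters only, and genes without one here can hold elements elsewhere, such as introns. The 250 bases before the start of Cdkn1a and of Ccng1, both described below, and the element of Rps27l are shown with the element in capitals, since these are the members in which it lies beside the start:
Cdkn1a, chr17:29090729-29090978, plus strand, element at chr17:29090928-29090947: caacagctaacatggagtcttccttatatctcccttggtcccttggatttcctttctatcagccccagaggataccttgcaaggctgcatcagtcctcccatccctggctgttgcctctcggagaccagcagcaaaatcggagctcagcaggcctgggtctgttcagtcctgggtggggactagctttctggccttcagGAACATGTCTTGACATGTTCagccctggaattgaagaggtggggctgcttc
Ccng1, chr11:40755287-40755536, minus strand, element at chr11:40755462-40755481: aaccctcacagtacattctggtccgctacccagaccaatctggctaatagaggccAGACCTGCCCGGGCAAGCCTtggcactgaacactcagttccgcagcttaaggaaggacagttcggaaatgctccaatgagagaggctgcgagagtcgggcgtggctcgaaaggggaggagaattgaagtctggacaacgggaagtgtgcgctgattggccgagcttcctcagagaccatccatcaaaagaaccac
Rps27l, plus strand, element at chr9:66946296-66946315: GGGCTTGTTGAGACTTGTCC
The first base of the element lay at -51 from the annotated start used here in Cdkn1a and at -195 in Ccng1. A gene can have more than 1 annotated start (33 promoters for the 23 genes). Which start these cells used was not tested, and the element can lie far from another start of the same gene. In Rps27l it lay at -117 from the second of the gene's annotated starts, inside the gene. Each of the 3 elements had 1 departure.

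BI-9564 was first compared with PFI-3, which asks how the response differs between the compounds. Of the 28 genes tested, 25 were higher and 3 lower with BI-9564, with a median log2 difference of 0.52, beside a median of 0.00 over all 10222 genes. None of the 28 was called by limma (0.108% of all genes were, with 1448 genes at an unadjusted p under 0.05), while 16 were higher and 1 lower at an unadjusted p under 0.05, beside 6.58% and 7.58% of all genes. With the replicate block 9 were called, all higher: Mdm2, Ccng1, Trp53inp1, Cdkn1a, Btg2, Plk2, Eda2r, Aen and Ercc5. The block called 1.48% of all genes, and 0.499% as higher. The role medians were 0.65 for p53 and feedback, 0.60 for arrest, 0.52 for death, 0.28 for repair and 0.23 for metabolism and other. The median over the members was 0.31 without PFI-3 replicate 2 and 0.68 without PFI-3 replicate 1. Replicate 1 was above replicate 2 in 22 of the 28 genes with PFI-3 (median log2 difference 0.35), 23 under DMSO (0.23), 19 under BI-9564 (0.14) and 18 under P+B (0.14). Over all genes that median was 0 in each group.

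In the same comparison the 10 embryonic stem cell markers were all lower with BI-9564 (median log2 difference -0.59), and 1 of them, Tdgf1, was called lower by limma, beside 0.0783% of all genes. With the block 5 of the 10 were called lower, beside 0.978% of all genes, and 6 were lower at an unadjusted p under 0.05, beside 7.58%. Their part in the result was not tested, and fewer cells of a type and less RNA per cell cannot be told apart in bulk libraries. Against DMSO the markers had a median of -0.25 with BI-9564, with 9 of 10 lower and none called by limma (3 lower at an unadjusted p under 0.05, beside 7.52% of all genes). The block called 1 of them lower, beside 1.04% of all genes. With PFI-3 9 of the 10 markers were higher than with DMSO (median 0.36), so the difference between the compounds holds a rise with PFI-3 too. None was called, and 4 were higher at an unadjusted p under 0.05, beside 6.79% of all genes in either direction. With P+B 5 markers were higher and 5 lower than with DMSO (median -0.03), and limma called 1 lower, beside 2.72% of all genes. The block called 1 higher and 1 lower, beside 2.93% and 4.1%.

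**Figure D1:**
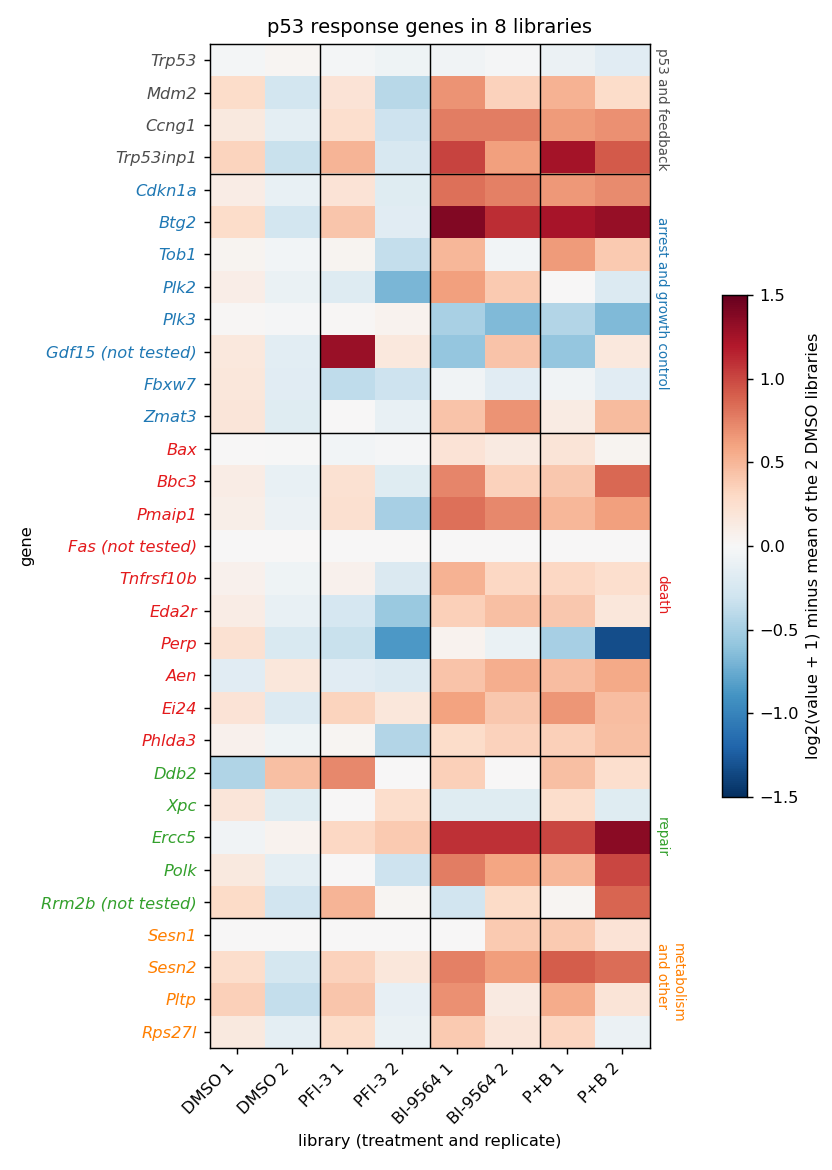
Heat map of the 31 p53 response genes (one line per gene, sorted by role) in the 8 libraries (columns), coloured by log2(TPM + 1) minus the mean of the 2 DMSO libraries. Red stands for higher and blue for lower than DMSO. Btg2, Cdkn1a, Ccng1 and Ercc5 are red in all 4 libraries with BI-9564, Plk3 is blue in those 4, and PFI-3 replicate 2 is blue for most of the death genes.

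Among p53 and its feedback genes, Trp53 itself was at 459 and 475 TPM under DMSO, 459 and 445 under PFI-3, 449 and 462 under BI-9564, and 439 and 414 under P+B. The BI-9564 values lay within the range of DMSO and PFI-3, and the log2 difference from PFI-3 was 0.01 (95% interval -0.15 to 0.17). A pseudogene, Trp53-ps, is annotated, and the counting could split reads between the 2 loci. Mdm2, the ubiquitin ligase that degrades p53, was at 142 and 96 TPM under DMSO, 135 and 87 under PFI-3, 187 and 149 under BI-9564, and 168 and 142 under P+B. The BI-9564 libraries were above all DMSO and PFI-3 libraries, and the P+B libraries at or above them. Against PFI-3 the log2 difference with BI-9564 was 0.62 (SE 0.243), with a limma adjusted p = 0.322 and 0.0338 with the block.

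Ccng1, which encodes cyclin G1, a partner of the phosphatase that acts on MDM2, was at 112 and 91 TPM under DMSO, 120 and 81 under PFI-3, 173 and 173 under BI-9564, and 158 and 163 under P+B. The 4 libraries with BI-9564 did not overlap the 4 without. The log2 difference of BI-9564 from PFI-3 was 0.80 (SE 0.175), with limma adjusted p = 0.120 and 0.0387 with the block. Trp53inp1, a nuclear protein that promotes p53 activity, was at 45 and 28 TPM under DMSO, 51 and 30 under PFI-3, 73 and 55 under BI-9564, and 86 and 68 under P+B. Its libraries with and without BI-9564 also did not overlap, but its replicates lay far apart, and the log2 difference of 0.68 had a larger SE (0.295, limma adjusted p = 0.352, and 0.0430 with the block).

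Of the 7 arrest genes tested, 6 were higher with BI-9564 than with PFI-3. Cdkn1a, which encodes the cyclin-dependent kinase inhibitor p21 and holds the element shown above, was at 90 and 77 TPM under DMSO, 96 and 73 under PFI-3, 148 and 141 under BI-9564, and 131 and 137 under P+B. The highest library without BI-9564 was at 96 TPM and the lowest with it at 131. The log2 difference of BI-9564 from PFI-3 was 0.78 (SE 0.140, 1.72-fold), with limma adjusted p = 0.0828 and 0.0251 with the block. An annotated gene on the opposite strand, AC167363.2, overlaps Cdkn1a (chr17:29090976-29100727), and whether the counting used strand is not given in the sources used here.

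Btg2, an antiproliferative gene of the BTG/TOB family, was at 18 and 12 TPM under DMSO, 20 and 13 under PFI-3, 40 and 33 under BI-9564, and 36 and 38 under P+B. The lowest library with BI-9564 was thus above the highest without it, and the log2 difference of BI-9564 from PFI-3 was 1.12 (SE 0.246, 2.18-fold, limma adjusted p = 0.120, and 0.0302 with the block). Its relative Tob1 was at 20 and 19, 20 and 15, 28 and 19, and 31 and 26 TPM in the same order of groups, and its libraries overlapped. Plk2, a polo-like kinase, was at 119 and 104 TPM under DMSO, 97 and 69 under PFI-3, 171 and 146 under BI-9564, and 112 and 96 under P+B. Only its BI-9564 libraries stood above the rest, and the log2 difference of BI-9564 from PFI-3 was 0.94 (SE 0.171, limma adjusted p = 0.0828, and 0.0119 with the block).

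The related kinase gene Plk3 went the other way. It was at 36 and 35 TPM under DMSO, 36 and 37 under PFI-3, 25 and 22 under BI-9564, and 26 and 22 under P+B, so that all 4 libraries with BI-9564 were below all 4 without. The log2 difference of BI-9564 from PFI-3 was -0.62 (SE 0.140), with limma adjusted p = 0.133 and 0.0517 with the block, so it was not called. Tctex1d4 overlaps it on the opposite strand. Zmat3, an RNA-binding zinc finger protein, was at 26 and 20, 23 and 21, 31 and 37, and 25 and 32 TPM under DMSO, PFI-3, BI-9564 and P+B (log2 difference 0.60, SE 0.188, limma adjusted p = 0.234 for BI-9564 against PFI-3). Fbxw7, a substrate receptor of a ubiquitin ligase, stayed between 18 and 27 TPM, and Gdf15, a secreted factor, between 2 and 10.

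**Figure D2:**
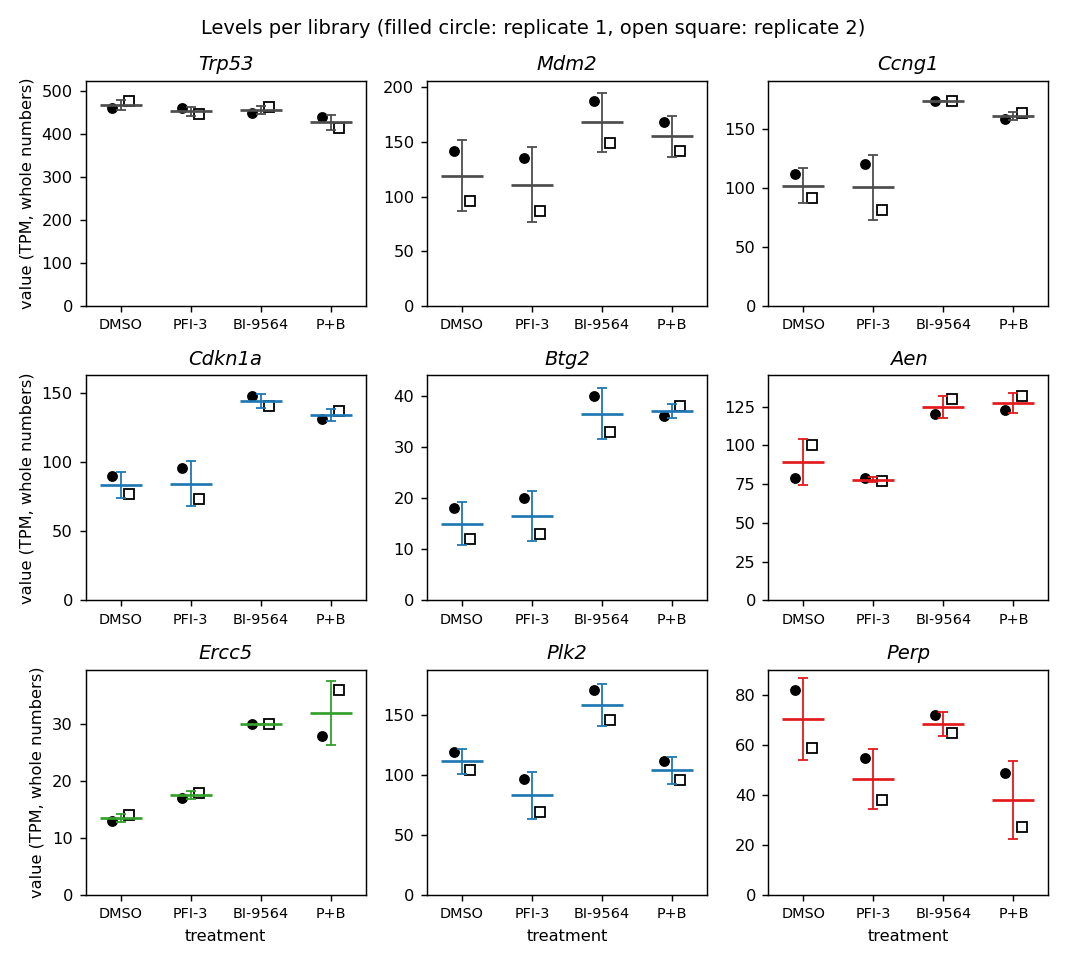
Levels in TPM (vertical axes, each from 0) of 9 p53 response genes in the 4 treatments. Filled circles are replicate 1, open squares replicate 2, horizontal bars the group mean and error bars 1 SD of the 2 libraries; Trp53 stays between 414 and 475 TPM, Cdkn1a, Btg2, Ccng1, Aen and Ercc5 are higher in both groups with BI-9564, and Plk2 and Perp are lower with P+B than with BI-9564.

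All 9 death genes tested were higher with BI-9564 than with PFI-3, and Aen and Eda2r passed the test with the block. Aen, an exonuclease that acts in apoptosis, was at 79 and 100 TPM under DMSO, 79 and 77 under PFI-3, 120 and 130 under BI-9564, and 123 and 132 under P+B. Its libraries with BI-9564 were all above those without, and the log2 difference of BI-9564 from PFI-3 was 0.67 (SE 0.124, limma adjusted p = 0.0834, and 0.0267 with the block). Eda2r, a receptor of the TNF receptor family, was at 26 and 22 TPM under DMSO, 20 and 16 under PFI-3, 31 and 33 under BI-9564, and 32 and 27 under P+B. The PFI-3 libraries were the lowest of the 8, and the log2 difference of BI-9564 from PFI-3 was 0.80 (SE 0.169, limma adjusted p = 0.117, and 0.0398 with the block).

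The BH3-only genes were low. Pmaip1, which encodes NOXA, was at 8 and 7 TPM under DMSO, 9 and 5 under PFI-3, 14 and 13 under BI-9564, and 11 and 12 under P+B, without overlap between libraries with and without BI-9564. Its log2 difference between BI-9564 and PFI-3 was 0.90 (SE 0.276, limma adjusted p = 0.225). Bbc3, which encodes PUMA, was at 21 and 18, 23 and 17, 33 and 25, and 26 and 36 TPM in the same order of groups, again with no overlap. Bax, the pore-forming effector, had a high level and a small difference: 327 and 323 TPM under DMSO, 316 and 320 under PFI-3, 375 and 358 under BI-9564, and 373 and 334 under P+B. Its replicates were close, the libraries with BI-9564 were all above those without, and the log2 difference of BI-9564 from PFI-3 was 0.20 (SE 0.0779, limma adjusted p = 0.308). Gm45808 overlaps Bax on the same strand.

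Of the death receptors, Fas was listed at 0 in all 8 libraries. Tnfrsf10b, the receptor for TRAIL, was at 21 and 19 TPM under DMSO, 21 and 17 under PFI-3, 29 and 25 under BI-9564, and 25 and 24 under P+B (log2 difference 0.49, SE 0.163, limma adjusted p = 0.259 for BI-9564 against PFI-3). Phlda3, which restrains the kinase AKT, was at 115 and 105, 112 and 81, 133 and 140, and 141 and 151 TPM in the same order (log2 difference 0.51, SE 0.146, limma adjusted p = 0.206). Both had all libraries with BI-9564 above all without. Ei24, a protein of the endoplasmic reticulum, was at 72 and 54 TPM under DMSO, 79 and 70 under PFI-3, 95 and 83 under BI-9564, and 99 and 86 under P+B, and thus also had separate ranges. Perp, a membrane protein of desmosomes, is described with P+B below.

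Of the 4 repair genes tested, 2 were higher and 2 lower with BI-9564 than with PFI-3. Ercc5, which encodes the XPG endonuclease of nucleotide excision repair, was at 13 and 14 TPM under DMSO, 17 and 18 under PFI-3, 30 and 30 under BI-9564, and 28 and 36 under P+B. The libraries with BI-9564 were all above those without, and its log2 difference between BI-9564 and PFI-3 was 0.75 (SE 0.162, limma adjusted p = 0.120, and 0.0453 with the block). Polk, a translesion polymerase, was at 10 and 8 TPM under DMSO, 9 and 7 under PFI-3, 16 and 14 under BI-9564, and 13 and 19 under P+B, also without overlap (log2 difference 0.84, SE 0.249, limma adjusted p = 0.218). The damage sensors of the same repair pathway as Ercc5 did not separate: Ddb2 was between 7 and 17 TPM and Xpc between 13 and 18, with log2 differences of -0.18 (95% interval -0.98 to 0.62) and -0.32 (-0.82 to 0.19). Rrm2b, a ribonucleotide reductase subunit, was between 3 and 8 TPM. Acp2 overlaps Ddb2 and Gm17622 overlaps Polk on the opposite strand.

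Of the metabolic genes, Sesn2, a sestrin that restrains mTORC1, was at 62 and 43 TPM under DMSO, 66 and 58 under PFI-3, 88 and 80 under BI-9564, and 98 and 93 under P+B. Its libraries with BI-9564 were all above those without (log2 difference of BI-9564 from PFI-3 0.43, SE 0.168, limma adjusted p = 0.314). The related Sesn1 was at 12 TPM in all DMSO and PFI-3 libraries and between 12 and 16 in the others. Pltp, a phospholipid transfer protein, was between 16 and 34 TPM and Rps27l, a ribosomal protein paralog, between 439 and 634, with libraries that overlapped in both genes. Gm12981 overlaps Sesn2 on the same strand. Ctsa overlaps Pltp on the opposite strand, and near-identical ribosomal copies can share reads with Rps27l.

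**Figure D3:**
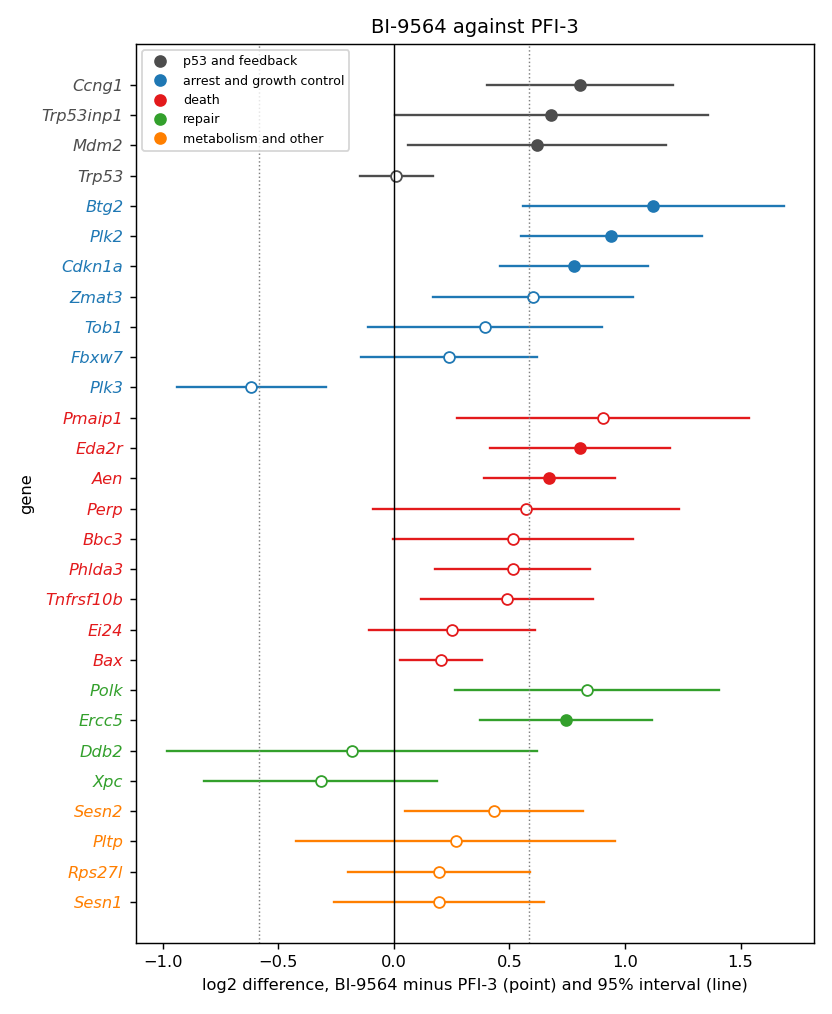
Log2 difference of BI-9564 minus PFI-3 (horizontal axis, points, with 95% intervals as lines) for the 28 genes tested, sorted by role and coloured by it. Filled points are genes called with the replicate block, open points the others, and dotted lines mark a 1.5-fold difference; 25 points lie to the right of 0 and Plk3, Xpc and Ddb2 to the left.

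Comparisons with DMSO showed on which side the difference lay. With PFI-3 alone 12 genes were higher, 15 lower and Sesn1 equal, with a median log2 difference of -0.03, beside 0.02 over all genes. None was called, and limma called 0% of all genes (694 genes, 6.79%, had an unadjusted p under 0.05). At an unadjusted p under 0.05 there were 2 members, both lower: Plk2 (log2 difference -0.44, SE 0.171, adjusted p = 0.669) and Eda2r (-0.40, SE 0.169, adjusted p = 0.720). With BI-9564 alone 23 were higher and 5 lower than DMSO, with a median of 0.45, beside 0.02 over all genes. None was called by limma (0.108% of all genes were), and 15 were higher and 1 lower at an unadjusted p under 0.05, beside 7.38% and 7.52% of all genes. The block called 6, all higher, beside 1.53% of all genes called and 0.489% called higher: Ercc5, Cdkn1a, Btg2, Ccng1, Sesn2 and Trp53inp1. Their log2 differences from DMSO were 1.10 for Ercc5 (SE 0.162), 0.79 for Cdkn1a (SE 0.140), 1.25 for Btg2 (SE 0.246), 0.77 for Ccng1 (SE 0.175), 0.69 for Sesn2 (SE 0.168) and 0.82 for Trp53inp1 (SE 0.295). Without the block their limma adjusted p were 0.0520, 0.0799, 0.106, 0.131, 0.144 and 0.269. These comparisons share the DMSO libraries with each other.

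With P+B 23 of the 28 genes were higher and 5 lower than with DMSO, with a median log2 difference of 0.39, beside 0.06 over all genes. Limma called 4 members (4% of all genes were called, 1.28% as higher), and these 4 rose: Ercc5 (log2 difference 1.18, SE 0.162, adjusted p = 0.00729), Sesn2 (0.87, SE 0.168, adjusted p = 0.0267), Btg2 (1.27, SE 0.246, adjusted p = 0.0273) and Cdkn1a (0.68, SE 0.140, adjusted p = 0.0348). With the block 7 were called (of all genes 7.02%, with 2.93% higher and 4.1% lower), the others being Ccng1 (log2 difference 0.66, limma adjusted p = 0.0707, and 0.0262 with the block) and Trp53inp1 (1.08, limma adjusted p = 0.0773, and 0.00253 with the block), which were higher, and Perp, which was lower. The count of 4 depended on single libraries, as it fell without any 1 of the DMSO, BI-9564 or P+B libraries. Such a fit leaves 1 library in a group and tests every gene with fewer libraries, so its counts are not given.

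P+B was next compared with each compound alone. The labels do not say whether a compound had the same dose in P+B as alone, so a change of its dose and the added compound cannot be told apart. Against PFI-3, again 23 genes were higher and 5 lower, with a median of 0.43, beside 0.03 over all genes. Limma called Aen (log2 difference 0.70, SE 0.124, adjusted p = 0.0384), while 1.31% of all genes were called and 0.264% as higher. The block called 11 members (of all genes 3.43%, with 1.04% higher and 2.4% lower): Ccng1, Trp53inp1, Cdkn1a, Btg2, Tob1, Eda2r, Aen, Phlda3, Ercc5 and Sesn2 as higher, and Plk3 as lower. The call of Aen was lost without some single libraries, while its log2 difference stayed between 0.65 and 0.75.

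Against BI-9564, with the same limit on doses, 14 genes were higher, 13 lower and 1 equal, with a median of 0.01, beside 0.02 over all genes, and none was called by limma (0.196% of all genes were, with 815 genes and 2 members at an unadjusted p under 0.05). The 2 members were both lower with P+B. Plk2 had a log2 difference of -0.60 (SE 0.171, limma adjusted p = 0.381) and was called with the block (adjusted p = 0.0353), which called 0.802% of all genes and 0.724% as lower. Its P+B level of 112 and 96 TPM was within the range of the DMSO and PFI-3 libraries (69 to 119). Perp was at 82 and 59 TPM under DMSO, 55 and 38 under PFI-3, 72 and 65 under BI-9564, and 49 and 27 under P+B. The P+B libraries of Perp were below both BI-9564 and both DMSO libraries, and its log2 difference was -0.89 from BI-9564 (SE 0.289, limma adjusted p = 0.487, and 0.0510 with the block) and -0.92 from DMSO (adjusted p = 0.111, and 0.0111 with the block).

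After these values were seen, the 4 libraries with BI-9564 (alone or in P+B) were compared with the 4 without. Of the 28 genes, 24 were higher and 4 lower, with a median log2 difference of 0.45, beside 0.03 over all genes. In this comparison 8 members rose by limma, beside 3.19% of all genes called and 1.2% called higher. Btg2 had a log2 difference of 1.20 (SE 0.174, adjusted p = 0.00951), Ercc5 of 0.96, Trp53inp1 of 0.88, Polk of 0.79, Cdkn1a of 0.73 (SE 0.0989, adjusted p = 0.00719), Ccng1 of 0.73, Sesn2 of 0.65 and Aen of 0.59. Plk3 had a log2 difference of -0.58 (limma adjusted p = 0.0165) and missed the fold of 1.5. The libraries with BI-9564 were all above those without in 15 of the 28 genes, beside 7.78% of all genes, and all below in 1, Plk3, beside 6.04%. Separate ranges by definition give the smallest exact two-sided permutation p of 4 against 4, 0.0286. This p is not adjusted over genes and adds nothing to the ranges. Leaving out any 1 library lowered the count of 8. Such fits test every gene with fewer libraries, so their counts are not given. Across these 8 fits the log2 difference of Ercc5 ranged from 0.87 to 1.05. The 10 embryonic stem cell markers were all lower with BI-9564 in this comparison too (median log2 difference -0.22). Tdgf1 was called, beside 3.19% of all genes called in either direction. At an unadjusted p under 0.05 there were 4 markers, all lower, beside 2529 of all 10222 genes in either direction. The part of the markers in the result was not tested.

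The difference of P+B from PFI-3 was also set against that of BI-9564 from DMSO, after the values were seen and with the same limit on doses. The difference between them was called in none of the 28 genes by limma (0% of all genes, with 333 genes and 0 members at an unadjusted p under 0.05). It ranged from -0.30 (Perp) to 0.45 (Tob1) on the log2 scale, with a median of -0.05. The intervals were wide, for example -0.57 to 0.34 for Cdkn1a and -0.90 to 0.70 for Btg2, so differences within these intervals could not be told apart from none. BI-9564 minus DMSO and P+B minus PFI-3 share no library, and across the 28 genes their log2 differences had Pearson's r = 0.87 and Spearman's rho = 0.83, with the same sign in 26 and both higher in 22. Over all 10222 genes r was 0.54, with the same sign in 69.5%. Genes are not independent replicates, and the libraries carry the same replicate numbers.

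**Figure D4:**
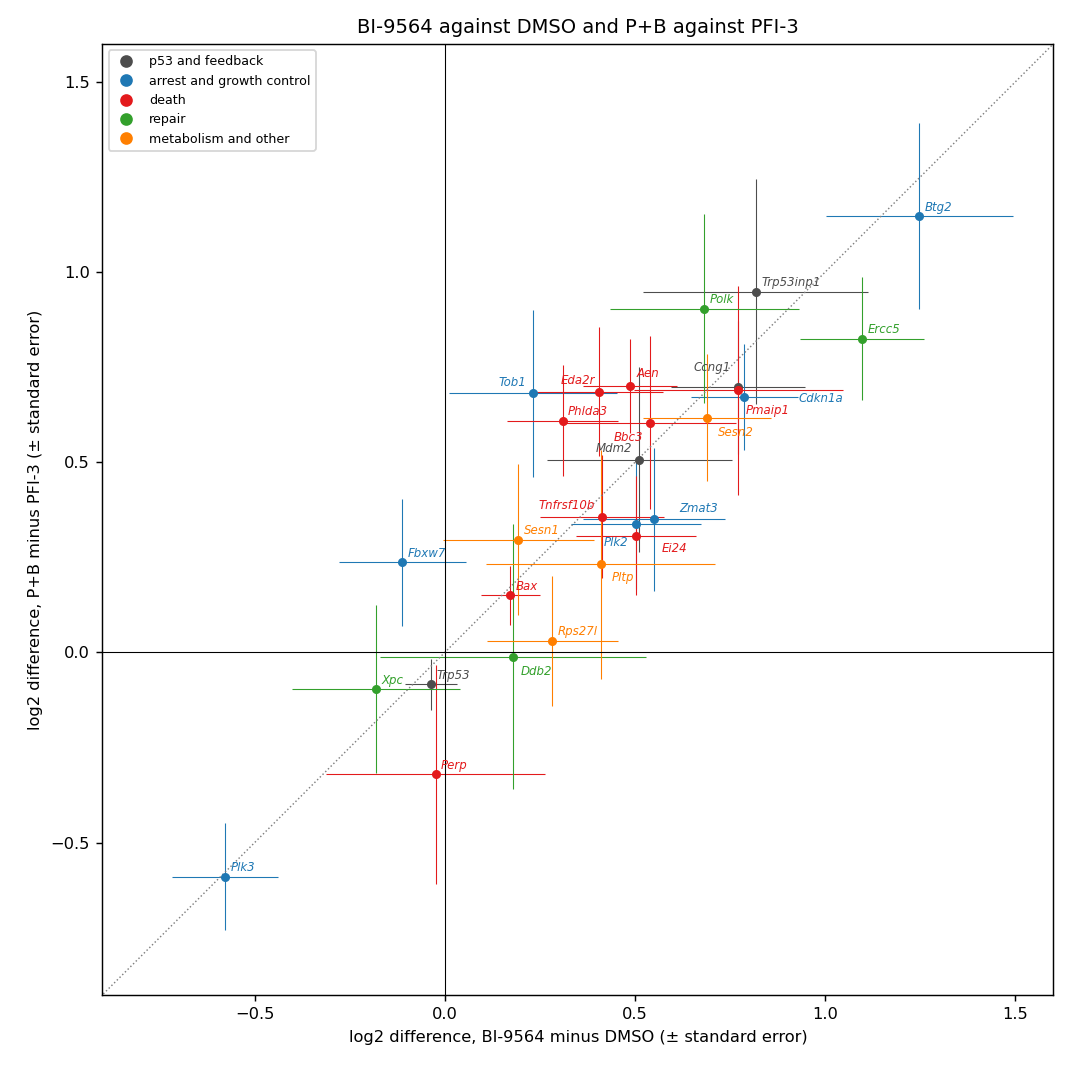
Log2 difference of BI-9564 minus DMSO (horizontal axis) and of P+B minus PFI-3 (vertical axis) for the 28 genes tested, coloured by role, with standard errors as lines and a dotted line of equal difference. Points lie along that line: 22 are above 0 on both axes, with Btg2 farthest out, and Plk3 is below 0 on both.

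Other genes of the pathway were listed from the same general knowledge, also with earlier results of these data known. Of 38 other p53 targets 30 were tested, and 23 were higher and 7 lower with BI-9564 than with PFI-3, with a median log2 difference of 0.27. Limma called 1 of the 30, beside 0.0293% of all genes called higher, and the block called 3 higher and 1 lower, beside 0.499% and 0.978%. The gene called by limma was Psrc1, a microtubule-associated protein, which rose (log2 difference 1.05, SE 0.100, limma adjusted p = 0.0207). It was at 102 and 99 TPM under DMSO, 80 and 81 under PFI-3, 155 and 182 under BI-9564, and 127 and 130 under P+B. With P+B against DMSO 2 of the 30 rose and 3 fell, beside 1.28% and 2.72% of all genes. With the block 4 were called higher and 3 lower, beside 2.93% and 4.1%. The thiamine transporter gene Slc19a2 rose (0.77, SE 0.148, adjusted p = 0.0266), as did Ppm1d, a phosphatase that ends p53 signalling (0.69, SE 0.150, adjusted p = 0.0417, named after its values were seen).

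Among those that fell were Sfn, which encodes 14-3-3 sigma and acts in arrest, and the stress gene Gadd45a. Sfn was at 832 and 733 TPM under DMSO, 727 and 596 under PFI-3, 597 and 457 under BI-9564, and 336 and 235 under P+B (log2 difference of P+B from DMSO -1.47, SE 0.189, limma adjusted p = 0.00532). Gadd45a was at 87 and 112, 62 and 73, 62 and 76, and 46 and 47 TPM in the same order (-1.07, SE 0.158, adjusted p = 0.00980). In both genes every P+B library was below every DMSO library, and the libraries of both single compounds lay between, whereas Cdkn1a and Btg2 were above DMSO in every P+B library.

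Of 28 regulators of p53, 24 were tested and 16 were higher and 8 lower with BI-9564 than with PFI-3, with a median of 0.10 and none called by limma. At an unadjusted p under 0.05 there were 4 of the 24, beside 1448 of all 10222 genes. The 3 with the smallest p were Trp53bp1, a damage response adaptor, at 35 and 27 TPM under DMSO, 20 and 21 under PFI-3, 33 and 36 under BI-9564, and 39 and 34 under P+B, Rchy1, a ubiquitin ligase for p53, and Ppp1r13b, a cofactor. Rchy1 had a log2 difference of 0.61 (limma adjusted p = 0.120, and 0.0441 with the block) and Ppp1r13b of 0.76 (adjusted p = 0.284). The block called 1 of the 24, Rchy1, beside 0.499% of all genes called higher. Cell cycle genes that p53 represses through p21 and the DREAM complex were evenly split: of 18 tested 9 were higher and 9 lower with BI-9564, with a median of -0.01 and none called by limma (4 at an unadjusted p under 0.05, beside the same 1448 of all 10222 genes). With P+B against DMSO 1 of these 18, the phosphatase gene Cdc25c, rose (log2 difference 0.74, SE 0.140, adjusted p = 0.0261), beside 1.28% of all genes called higher. It was at 16 and 15 TPM under DMSO and between 24 and 27 TPM in the 6 libraries with either compound.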

How the data were processed

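RNA-seq of 8 libraries (2 each for DMSO, PFI-3, BI-9564 and P+B) was read from 1 table of 50600 gene names. Each value is a score, TPM that the authors rounded to whole numbers and deposited. The submitters' processing notes name bcl2fastq, Bowtie2 2.2.5, RSEM 1.3.0 and mm10. The annotation and the use of strand are not given in the sources used here, and 33075 genes were at 0 throughout. Sequencing depth and counting error cannot be read from TPM, and the count models of the study's methods were not run.

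Groups were taken from the labels, and all 8 columns were used. Limma 3.58.1 (R 4.3.3; lmFit, eBayes with a trend) was run on log2(value + 1) of the 10222 genes whose mean reached 5, all groups in 1 fit (residual degrees of freedom: 4). P-values were adjusted by Benjamini-Hochberg over all genes tested in each comparison, and a call needed an adjusted p under 0.05 and a fold of at least 1.5. The fit without the block was run on simulated data with no replicate effect. The outcome of that run is not given here, and it tells nothing about the block. For single values the smallest exact two-sided permutation p is 0.333 with 2 against 2. Replicate 1 minus replicate 2 was weakly correlated between groups over all genes (Pearson's r 0.143 to 0.236 in the 6 pairs of groups, over 10222 genes). A replicate block, which treats same-numbered libraries as pairs, was therefore fitted as an alternative. This pairing was inferred from the same data and is not given in the labels, and calls made only with the block rest on it. Other alternatives were pseudocounts, filters, quantile normalization, median centring, no trend, only the 4 libraries compared, a stricter threshold, and leaving out each library.

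The members and lists were chosen with earlier results of these data known, so their counts are descriptions. Every member is named. Log2 difference, standard error and adjusted p are printed for members at an unadjusted p under 0.05 in BI-9564 against PFI-3, and for the called members and some others elsewhere. Of the other pathway lists, up to 5 called genes a list are named or, where none was called, the 3 with the smallest p. A called gene of these lists is not reported here. Positions are from GENCODE M21 on GRCm38, and promoters from RefSeq on GRCm38.p6.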

Additional observations from a re-analysis of the deposited data

How the results depend on the processing

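The replicate block, no trend and only the 4 libraries compared leave each log2 difference unchanged by design. For a left-out library, the shift and the spread between replicates come from the same libraries. It is therefore no measure of robustness that medians over the members moved by less than that spread under each alternative run. Without one library each, they ranged from 0.31 to 0.68 for BI-9564 against PFI-3, -0.19 to 0.05 for PFI-3 against DMSO, 0.32 to 0.56 for BI-9564 against DMSO, 0.32 to 0.48 for P+B against DMSO, 0.29 to 0.65 for P+B against PFI-3, -0.07 to 0.06 for P+B against BI-9564, 0.36 to 0.55 for libraries with BI-9564 against those without and -0.22 to 0.10 for P+B minus PFI-3 set against BI-9564 minus DMSO. A group left with 1 library was assumed to vary like the others. No member called changed direction.

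Counts of called members moved more, and the cause was not tested. With the replicate block, which treats same-numbered libraries as pairs, they were 9 for BI-9564 against PFI-3 (0 without the block), 6 for BI-9564 against DMSO (0), 7 for P+B against DMSO (4), 11 for P+B against PFI-3 (1), 1 for P+B against BI-9564 (0) and 9 for with against without BI-9564 (8). In the last of these the block called 506 of all 10222 genes, and the shares for the others are given above. With no filter the counts were 7, 6, 7, 8 and 2 in the first 5 of these comparisons. That setting also took in the 33075 genes at 0 throughout. In BI-9564 against PFI-3 it lowered the standard error of Ccng1 and raised that of Plk3. The counts with no filter were therefore not taken as comparable with the others, and no share of all genes is given for them. With a mean of at least 20 there was 1 for BI-9564 against DMSO and there were 3 for P+B against PFI-3, and with a mean of at least 1 there were 0 for the latter. For P+B against DMSO the count was 1 without a trend, 0 with only the 4 libraries compared and 1 at an adjusted p under 0.01. For P+B against PFI-3 it was 2 after quantile normalization, 0 without a trend, 0 with only the 4 libraries and 0 at 0.01. For with against without BI-9564 it was 3 at 0.01. Counts without one library each also fell in some comparisons, and are not given because 1 group then holds 1 library. The number of all genes called moved with the setting too. For BI-9564 against PFI-3 it was 11 in the main fit, 18 with a mean of at least 20 and 0 with a mean of at least 1. Shares of all genes are not given for the counts under these other settings, so those counts describe the settings and not the members. Depth is unknown for TPM, and 2 libraries a group limit every call.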
